A study of Mus musculus with 9 samples.

Results

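A set of 10 genes tied to the nuclear receptor PPAR-alpha were followed in left ventricular tissue of wild-type mice: the receptor gene Ppara itself and the target genes Pdk4, Ucp3, Ucp2, Angptl4, Lpl, Vldlr, Cd36, Slc27a1 and Fabp3. They were taken by gene symbol, 10 of 22036 annotated genes, and all 10 passed the filter on low counts. In HFD AAV-BCKDK hearts (high-fat diet, BCKDK vector), bulk mRNA was measured in 3 biological replicates, as it was in HFD AAV-CON hearts (high-fat diet, control vector) and in ND AAV-CON hearts (normal diet, control vector). ND and HFD are read here as normal diet and high-fat diet, and AAV stands for adeno-associated virus. All 9 hearts therefore carried a vector, so none shows the level without one. BCKDK is the kinase that inhibits the branched-chain ketoacid dehydrogenase, and the series title sets it against cardiac remodelling in obesity. The labels used here do not give age, sex, diet composition or duration, nor the dose of the vector or the promoter that drives it.

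PPAR-alpha is a ligand-activated transcription factor that binds DNA as a partner of the retinoid X receptor, at paired AGGTCA-like sites, and is switched on by fatty acids and their derivatives. In heart muscle, which draws much of its energy from fatty acids, its targets serve the release of fatty acids from circulating triglyceride, their uptake and transport, their oxidation, and the restraint of glucose oxidation. Ucp3 and Ucp2 encode carriers of the inner mitochondrial membrane that are related to the uncoupling protein of brown fat.

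The main pattern was a set of genes that were lower in HFD AAV-CON hearts and higher again with the BCKDK vector, while the receptor mRNA gave no call in either comparison. Ucp3 and Pdk4 were lowered most and came about midway back, Cd36, Lpl, Slc27a1 and Vldlr came most or all of the way back, and Ucp2 moved the opposite way to the others in both comparisons. These distances depend on the scaling: with total counts Lpl (57%) and Slc27a1 (54.9%) also came about midway, and Ucp3 (39.4%) and Pdk4 (35.7%) less far. With an adjusted p under 0.05 taken as a call (edgeR's quasi-likelihood test, Benjamini-Hochberg adjustment over 14160 genes), 6 members fell, 1 rose and 3 were not called in HFD AAV-CON against ND AAV-CON. In that comparison 43.3% of all genes were called, 20.6% as lower and 22.7% as higher. With the BCKDK vector, in HFD AAV-BCKDK against HFD AAV-CON, 7 members rose, 1 fell and 2 were not called, where 38.2% of all genes were called, 17.3% as higher and 20.9% as lower. When HFD AAV-BCKDK was set against ND AAV-CON, 1 member, Ucp3, was called as lower, and 2.45% of all genes were called, 1.27% as lower and 1.18% as higher. Counted by libraries that did not overlap, 7 members were lower and 1 higher in HFD AAV-CON than in ND AAV-CON, where 55.3% of all genes did not overlap, 27.1% as lower and 28.2% as higher. By the same count 7 were higher and 1 lower in HFD AAV-BCKDK than in HFD AAV-CON, beside 51.2% of all genes, 24% as higher and 27.3% as lower. Between HFD AAV-BCKDK and ND AAV-CON 5 were lower and 1 higher without overlap, beside 27.7% of all genes, 15.1% as lower and 12.6% as higher. The median log2 fold change of the 10 members was -0.86, 0.80 and -0.18 in these comparisons, in the order given, beside 0, -0.01 and -0.03 over all genes tested. The first and second comparisons share the HFD AAV-CON libraries, so their opposite signs are not independent of each other. Set against the counts of cardiomyocyte markers in the same library, as described further on, 3 members were higher, 2 lower and 5 overlapping in HFD AAV-BCKDK against HFD AAV-CON. The share of all genes without overlap was not taken on that scale.

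**Figure D1:**
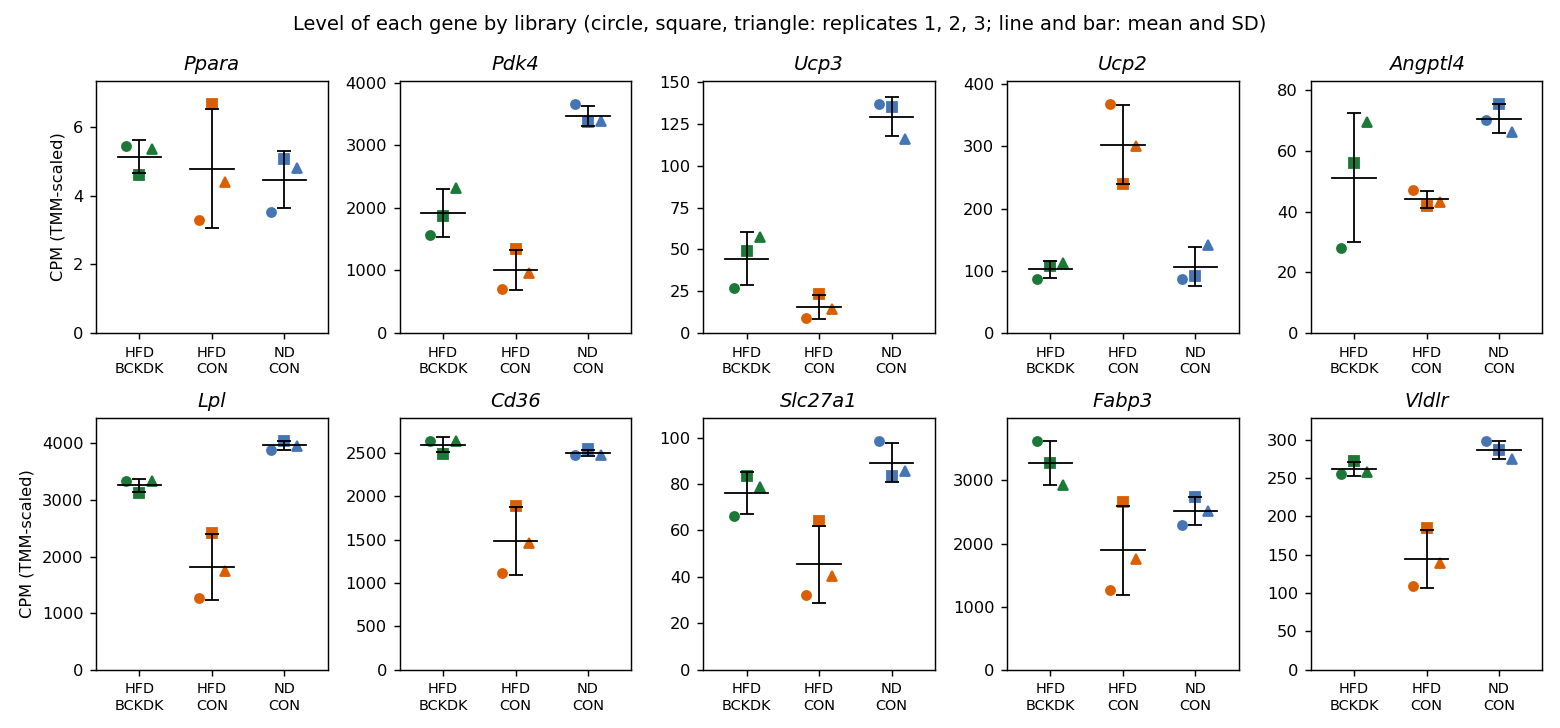
TMM-scaled, depth-scaled counts (CPM) of the 10 genes in every library, with 1 panel a gene and its own axis from 0; HFD AAV-BCKDK, HFD AAV-CON and ND AAV-CON run left to right, markers are replicates, and black lines and bars are the mean and SD of 3 libraries. HFD AAV-CON hearts lie lowest for Pdk4, Ucp3, Lpl, Cd36, Slc27a1 and Vldlr and highest for Ucp2, and the groups overlap for Ppara.

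The libraries held 32803233 to 45483044 counts in annotated genes, and the members took 0.697% to 1.25% of them. Bckdk, the gene named in the vector, had 111, 126 and 120 CPM in HFD AAV-BCKDK hearts, 37.1, 65.0 and 49.4 CPM in HFD AAV-CON hearts, and 78.6, 70.3 and 70.6 CPM in ND AAV-CON hearts, so it was highest where the label says. HFD AAV-CON libraries stood apart in make-up: mitochondrially encoded mRNA took 26.1% to 39.9% of their counts, against 45.0% to 47.6% in HFD AAV-BCKDK and 42.1% to 45.7% in ND AAV-CON. Within HFD AAV-CON, replicate 3 lay between replicates 1 and 2 in 67.8% of 11288 genes, against 13.0% to 37.7% for the other libraries in their own groups, and it did so for all 10 members. Loci without a gene name took 1.02% of its counts and 4.75% to 6.01% in the other libraries, and 612 such loci had reads in this library only, against 39 to 211 for each of the others. Whether HFD AAV-CON replicate 3 is independent of the other libraries of its group was not tested. Without it, 7 members were called in HFD AAV-CON against ND AAV-CON and 5 in HFD AAV-BCKDK against HFD AAV-CON, where 4 rose and 1 fell.

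Selected RefSeq promoter windows (build GRCm38.p6, 250 bases before to 50 after the start, on the gene's own strand) are printed because their genes behaved differently: Ucp3 and Ucp2 are neighbours on chromosome 7 that moved in opposite directions, Pdk4 came back only in part, and Cd36 came fully back. Capitals mark matches, on either strand, to the core motif AGGTCA or to the direct repeat AGGTCANAGGTCA with at most 2 mismatches.
Ucp3 (chr7:100472741-100473040, plus strand): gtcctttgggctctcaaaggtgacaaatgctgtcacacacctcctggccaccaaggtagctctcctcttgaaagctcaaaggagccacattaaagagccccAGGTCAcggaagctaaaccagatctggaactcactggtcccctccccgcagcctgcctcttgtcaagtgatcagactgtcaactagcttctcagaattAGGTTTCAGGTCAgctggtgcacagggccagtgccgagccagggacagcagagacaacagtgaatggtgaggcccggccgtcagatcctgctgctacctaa
Ucp2 (chr7:100493108-100493407, plus strand): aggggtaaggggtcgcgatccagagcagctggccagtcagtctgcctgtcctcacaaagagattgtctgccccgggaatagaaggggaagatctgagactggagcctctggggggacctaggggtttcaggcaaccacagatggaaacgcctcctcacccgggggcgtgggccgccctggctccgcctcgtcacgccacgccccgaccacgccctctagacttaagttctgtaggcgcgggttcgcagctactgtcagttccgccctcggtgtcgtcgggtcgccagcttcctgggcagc
Pdk4 (chr6:5496229-5496528, minus strand): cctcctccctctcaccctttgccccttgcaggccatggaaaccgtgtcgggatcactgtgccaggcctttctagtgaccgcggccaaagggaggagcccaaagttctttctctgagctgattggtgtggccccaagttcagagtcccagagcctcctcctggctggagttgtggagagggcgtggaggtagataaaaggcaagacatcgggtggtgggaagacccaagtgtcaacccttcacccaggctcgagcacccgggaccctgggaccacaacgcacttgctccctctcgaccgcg
Cd36 (chr5:17835847-17836146, minus strand): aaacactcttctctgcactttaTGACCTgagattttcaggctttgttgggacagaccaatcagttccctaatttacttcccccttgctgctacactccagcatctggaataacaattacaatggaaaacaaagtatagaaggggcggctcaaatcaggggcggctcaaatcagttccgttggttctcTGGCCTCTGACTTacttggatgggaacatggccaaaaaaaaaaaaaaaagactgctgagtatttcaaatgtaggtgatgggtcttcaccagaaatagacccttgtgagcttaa
The Ucp3 window holds 2 core motifs, which begin 149 and 44 bases before the start, and a direct repeat that begins 51 bases before it and includes the nearer core motif. The Cd36 window holds 1 core motif 228 bases before the start and 1 direct repeat 63 bases before it, both on the opposite strand. The Ucp2 and Pdk4 windows hold neither. The Cd36 window lies inside the gene, away from its annotated outer start at position 17888801, so it marks another start. The Ucp3, Ucp2 and Pdk4 windows span the annotated start of their gene. Windows were matched for 8 of the 10 members, 11 windows in all, and only those of Ucp3 and Cd36 held a match. Of 32851 mouse promoter windows of the same length, 16.3% hold the core motif, 1.79% hold it at least 2 times and 3.86% hold the direct repeat. A match here describes letters only and is not evidence of binding.

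The receptor gene Ppara (ENSMUSG00000022383, mm10 chr15:85734983-85802819, plus strand) was the least abundant member and was not called in any comparison. It had 5.46, 4.60 and 5.37 CPM in HFD AAV-BCKDK hearts, 3.29, 6.68 and 4.41 CPM in HFD AAV-CON hearts, and 3.53, 5.08 and 4.82 CPM in ND AAV-CON hearts. The lowest and the highest of the 9 values both lay in HFD AAV-CON, and the groups overlapped throughout. Per kilobase of exon it averaged 1.34 ± 0.124 CPM per kb in HFD AAV-BCKDK, 1.25 ± 0.450 in HFD AAV-CON and 1.17 ± 0.217 in ND AAV-CON (SD, n = 3). The log2 fold change was 0.09 in HFD AAV-CON relative to ND AAV-CON (SE 0.25, 95% interval -0.48 to 0.66, adjusted p = 0.794) and 0.11 in HFD AAV-BCKDK relative to HFD AAV-CON (SE 0.25, 95% interval -0.46 to 0.68, adjusted p = 0.758). These intervals do not show equal levels, and the sign turned with the scaling: with total counts in place of TMM factors the second value was -0.30. The median of all genes was then -0.468, so Ppara stayed above it. Profiles were compared with 11383 genes that averaged 1 or more in log2 CPM, leaving out genes with predicted-gene, Rik or accession-type symbols. Among these, the 5 whose profile over the 9 libraries lay nearest to that of Ppara were Mrap, Tinagl1, Ninj1, Apba3 and Armc6. Their root mean square difference from it was 0.117 to 0.152 on the centred log2 CPM scale, against a median of 0.37 over all those genes.

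Partner receptors, coactivators and corepressors of PPAR-alpha mostly gave no call. Of 19 such genes, 2 rose, 2 fell and 15 were not called in HFD AAV-CON against ND AAV-CON. The acetyltransferase Ep300 was among those that rose, with a log2 fold change of 0.39 (SE 0.077, adjusted p = 0.00445). The deacetylase Hdac3, which works with nuclear receptor corepressors, fell by 0.58 (SE 0.10, adjusted p = 0.00222), and the coactivator Ppargc1b fell by 0.65 (SE 0.23, adjusted p = 0.043). The Ppargc1b call was lost in 7 of 9 fits without 1 library. With total-count scaling, where the median of all genes was 0.398, the split became 8 higher and 0 lower, so the direction of this group rests on the scaling. Between HFD AAV-BCKDK and HFD AAV-CON the split was 2 higher and 2 lower, and 0 higher and 10 lower with total counts. The 2 higher genes, chosen after their values were seen, were the receptor Esrra (0.63, SE 0.20) and the coregulator Lpin1 (0.58, SE 0.18); Ep300 was among the lower ones (-0.33, SE 0.078). Esrra and Lpin1 were each called in 4 of 9 fits without 1 library and not when HFD AAV-CON replicate 1 or 3 or any HFD AAV-BCKDK library was left out. For Ep300 this call did not hold (adjusted p = 0.0531) when HFD AAV-CON replicate 1 was left out. Calls in the list came to 0 without HFD AAV-CON replicate 1, 8 without replicate 2 and 1 without replicate 3, so neither the count nor its split is steady. Against ND AAV-CON, edgeR called 0 of the 19 in HFD AAV-BCKDK hearts, where 5 had an unadjusted p under 0.05; DESeq2 called 2 and limma-voom 0.

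Ucp3 (ENSMUSG00000032942, mm10 chr7:100472990-100486432, plus strand), the carrier of heart and skeletal muscle, fell most among the members. It had 26.7, 49.3 and 57.6 CPM in HFD AAV-BCKDK hearts, 9.16, 23.2 and 14.5 CPM in HFD AAV-CON hearts, and 137, 135 and 116 CPM in ND AAV-CON hearts. Every HFD AAV-BCKDK library lay above every HFD AAV-CON library and below every ND AAV-CON library. The level was 8.34-fold lower in HFD AAV-CON than in ND AAV-CON (log2 fold change -3.06, SE 0.36, adjusted p = 0.000649) and 2.87-fold higher in HFD AAV-BCKDK than in HFD AAV-CON (1.52, SE 0.34, adjusted p = 0.00975). Against ND AAV-CON it remained 2.90-fold lower in HFD AAV-BCKDK (-1.54, SE 0.34, 95% interval -2.29 to -0.78, adjusted p = 0.0491). This last call did not hold when HFD AAV-CON replicate 3 was left out, nor in 6 more of the 9 fits without 1 library, where adjusted p reached 0.148, although the fold change stayed between -1.77 and -1.28.

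Ucp2 (ENSMUSG00000033685, mm10 chr7:100493337-100502020, plus strand), the widely expressed relative that is also abundant in immune cells, was the only member that rose under the diet. Its gene begins 6904 bases beyond the end of Ucp3 with no annotated gene between them. It had 87.1, 108 and 112 CPM in HFD AAV-BCKDK hearts, 368, 240 and 300 CPM in HFD AAV-CON hearts, and 86.1, 91.9 and 142 CPM in ND AAV-CON hearts. All HFD AAV-CON values stood above the others, and the HFD AAV-BCKDK and ND AAV-CON values overlapped. The level was 2.84-fold higher in HFD AAV-CON than in ND AAV-CON (log2 fold change 1.51, SE 0.22, adjusted p = 0.00117) and 2.95-fold lower in HFD AAV-BCKDK than in HFD AAV-CON (-1.56, SE 0.22, adjusted p = 0.00162). HFD AAV-BCKDK differed from ND AAV-CON by -0.06, with a 95% interval of -0.54 to 0.42. Dnajb13 lies on the opposite strand over an exon of Ucp2 and strand use in counting is not given, but its count was at most 0.39% of that of Ucp2 in any library.

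Most macrophage markers moved with Ucp2. Of 16 markers, 15 rose and 1 was not called in HFD AAV-CON against ND AAV-CON. In HFD AAV-BCKDK against HFD AAV-CON 15 fell and 1 rose, against the direction of Ucp2. Their summed level was 603 to 797 CPM in HFD AAV-BCKDK hearts, 2120 to 3520 CPM in HFD AAV-CON hearts and 776 to 1070 CPM in ND AAV-CON hearts, and none of the 16 was at 0 in any library. Per 1000 counts of these markers, Ucp2 had 144, 142 and 140 counts in HFD AAV-BCKDK hearts, 105, 113 and 105 in HFD AAV-CON hearts, and 111, 117 and 132 in ND AAV-CON hearts. On this scale HFD AAV-CON no longer stood above ND AAV-CON (log2 difference -0.16, groups overlapping), and HFD AAV-BCKDK stood above both. The part of macrophage RNA in the change of Ucp2 was not tested, and in bulk tissue more or fewer cells of a type and more or less RNA per cell cannot be told apart.

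Because the ratio of counts within a library does not depend on scaling between libraries, Ucp3 was set against Ucp2 directly. The ratio of Ucp3 to Ucp2 counts was 0.307, 0.455 and 0.515 in HFD AAV-BCKDK hearts, 0.0249, 0.0965 and 0.0484 in HFD AAV-CON hearts, and 1.59, 1.47 and 0.821 in ND AAV-CON hearts. The groups did not overlap. The ratio was 25.5-fold lower in HFD AAV-CON than in ND AAV-CON, 8.52-fold higher in HFD AAV-BCKDK than in HFD AAV-CON, and 2.99-fold lower in HFD AAV-BCKDK than in ND AAV-CON (exact two-sided permutation p = 0.1 each, the smallest that 3 against 3 can give; 0.3 after adjustment over the 15 ratio tests made). Per kilobase of exon, Ucp2 and Ucp3 stood almost level in HFD AAV-BCKDK at 14.7 ± 1.92 and 14.2 ± 5.09 CPM per kb, Ucp2 was higher in HFD AAV-CON at 43.3 ± 9.16 against 4.98 ± 2.25 for Ucp3, and Ucp3 was higher in ND AAV-CON at 41.3 ± 3.62 against 15.2 ± 4.38 for Ucp2 (SD, n = 3). These levels depend on the union exon length, 6989 bases for Ucp2 and 3135 for Ucp3. In CPM, Ucp2 and Ucp3 averaged 102 and 44.5 in HFD AAV-BCKDK and 302 and 15.6 in HFD AAV-CON. In ND AAV-CON they averaged 107 and 129 CPM.

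**Figure D2:**
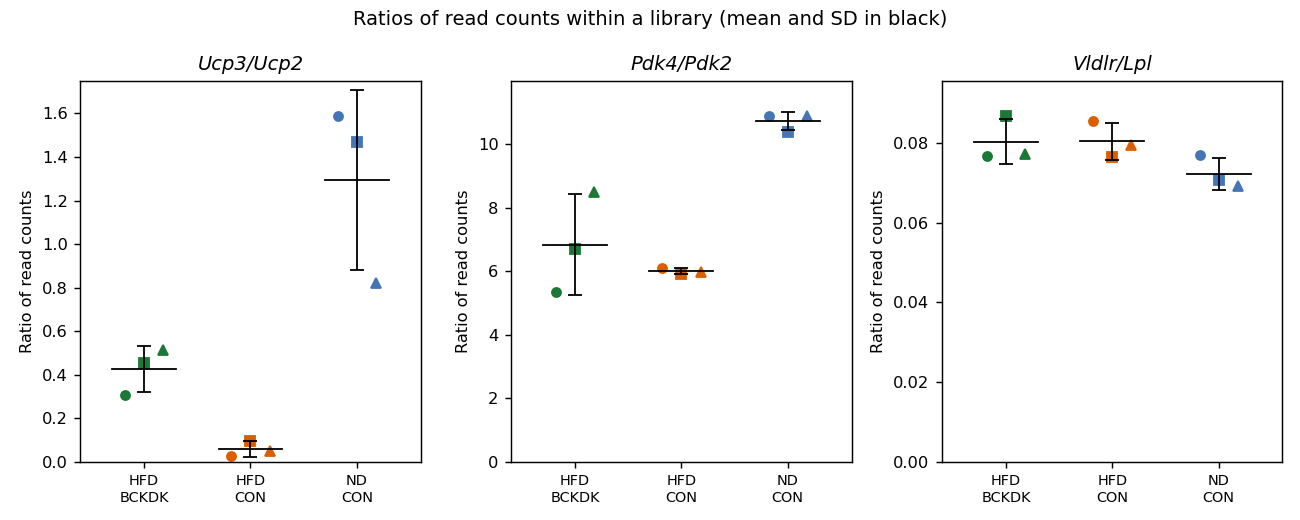
Ratios of read counts of 2 genes within each library, on linear axes from 0, for HFD AAV-BCKDK, HFD AAV-CON and ND AAV-CON from left to right; markers are replicates and black lines and bars are the mean and SD of 3 libraries. Ucp3 to Ucp2 separates all groups, Pdk4 to Pdk2 separates ND AAV-CON from the others, and Vldlr to Lpl overlaps in all groups.

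Other relatives among the mitochondrial carriers moved less. Of 7 tested, 3 fell and 4 were not called in HFD AAV-CON against ND AAV-CON: the brain-type carrier Slc25a27 (-1.03, SE 0.36), the ATP/ADP carrier Slc25a4 (-1.01, SE 0.23) and the oxoglutarate carrier Slc25a11 (-0.84, SE 0.19). Slc25a30 gave 0.29 (SE 0.15, adjusted p = 0.153). With the BCKDK vector, Slc25a4 rose by 0.73 (SE 0.23) and Slc25a11 by 0.68 (SE 0.19), and with total-count scaling none of the 7 rose and 3 fell. Both calls were lost without HFD AAV-CON replicate 3 and without HFD AAV-BCKDK replicate 1 or 2, and that of Slc25a4 also without HFD AAV-BCKDK replicate 3. The Slc25a27 call under the diet was lost in 5 of 9 fits without 1 library. The brown-fat gene Ucp1 was not tested because 8 of 9 libraries had no read of it.

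Pdk4 (ENSMUSG00000019577, mm10 chr6:5483351-5496309, minus strand), the kinase that inhibits pyruvate dehydrogenase and so restrains glucose oxidation, showed the second deepest fall. It had 1560, 1870 and 2320 CPM in HFD AAV-BCKDK hearts, 709, 1350 and 955 CPM in HFD AAV-CON hearts, and 3660, 3370 and 3380 CPM in ND AAV-CON hearts. As with Ucp3, HFD AAV-BCKDK lay wholly between the other groups. Pdk4 was 3.45-fold lower in HFD AAV-CON than in ND AAV-CON (log2 fold change -1.79, SE 0.24, adjusted p = 0.000875) and 1.91-fold higher in HFD AAV-BCKDK than in HFD AAV-CON (0.93, SE 0.23, adjusted p = 0.0148). The second call did not hold when HFD AAV-CON replicate 3 was left out (0.92, adjusted p = 0.0526), nor HFD AAV-BCKDK replicate 3 (0.77, adjusted p = 0.0529). HFD AAV-BCKDK gave -0.86 against ND AAV-CON (SE 0.23, 95% interval -1.38 to -0.34), which missed the threshold over all genes (adjusted p = 0.0981) and passed it with DESeq2 (adjusted p = 0.00384) and when HFD AAV-CON replicate 1 (0.0326) or 2 (0.0193) was left out. A fit of these 2 groups alone also passed it (-0.85, adjusted p = 0.0071).

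Set against its relative Pdk2, the other abundant kinase of the same complex in heart, Pdk4 showed little change with the vector. The Pdk4 to Pdk2 count ratio was 5.34, 6.69 and 8.49 in HFD AAV-BCKDK hearts, 6.10, 5.92 and 5.96 in HFD AAV-CON hearts, and 10.9, 10.4 and 10.9 in ND AAV-CON hearts. The HFD AAV-CON values lay close together and inside the HFD AAV-BCKDK range, and both groups lay below ND AAV-CON. The log2 ratio was lower by 0.84 in HFD AAV-CON than in ND AAV-CON (exact two-sided permutation p = 0.1, adjusted 0.3) and differed by 0.16 between HFD AAV-BCKDK and HFD AAV-CON (p = 0.6 by the same permutation test, adjusted 0.75). Without HFD AAV-BCKDK replicate 3 that difference was 0.00 and without replicate 1 it was 0.33.

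Genes for pyruvate dehydrogenase subunits, its phosphatases and kinases and the pyruvate carrier mostly fell. Of 12 genes tested, 11 fell and 1 rose in HFD AAV-CON against ND AAV-CON, with a median log2 fold change of -0.77. The phosphatases Pdp2 (-1.64, SE 0.25) and Pdp1 (-0.96, SE 0.11), which counter the kinases, the carrier subunit Mpc1 (-1.06, SE 0.16) and the dehydrogenase subunit Dld (-0.79, SE 0.17) were among them. The gene that rose, the kinase Pdk3 (1.12, SE 0.24), is named after its value was seen. With the BCKDK vector 9 rose and 1, again Pdk3, fell (-1.37, SE 0.25); 6 rose and 1 fell without HFD AAV-CON replicate 3, or without HFD AAV-BCKDK replicate 1 or 2. The dehydrogenase subunit Pdhx (0.48, adjusted p = 0.0571) and Pdp1 (0.17, adjusted p = 0.233) were not called, and are singled out after their values were seen. Pdp1 had 19.3, 20.8 and 23.3 CPM in HFD AAV-BCKDK hearts, 17.1, 20.0 and 19.5 CPM in HFD AAV-CON hearts, and 39.9, 36.0 and 34.0 CPM in ND AAV-CON hearts. Both high-fat groups lay below ND AAV-CON and overlapped each other, and HFD AAV-BCKDK was lower than ND AAV-CON by a log2 difference of -0.79 (SE 0.11, adjusted p = 0.00914). It did not hold (adjusted p = 0.0518) when ND AAV-CON replicate 1 was left out.

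Lpl (ENSMUSG00000015568, mm10 chr8:68880491-68907448, plus strand) encodes lipoprotein lipase, which frees fatty acids from circulating triglyceride at the capillary wall. It had 3330, 3130 and 3330 CPM in HFD AAV-BCKDK hearts, 1270, 2420 and 1750 CPM in HFD AAV-CON hearts, and 3890, 4050 and 3960 CPM in ND AAV-CON hearts. HFD AAV-BCKDK stood above all HFD AAV-CON values and just below all ND AAV-CON values. Lpl was 2.19-fold lower in HFD AAV-CON than in ND AAV-CON (log2 fold change -1.13, SE 0.21, adjusted p = 0.00318) and 1.80-fold higher in HFD AAV-BCKDK than in HFD AAV-CON (0.85, SE 0.21, adjusted p = 0.014). The difference that was left against ND AAV-CON was -0.28, with a 95% interval of -0.75 to 0.18. This interval uses a spread shared with HFD AAV-CON, whose replicates differed most. A fit of these 2 groups alone called Lpl as lower in HFD AAV-BCKDK than in ND AAV-CON (-0.27, adjusted p = 0.0284).

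Vldlr (ENSMUSG00000024924, mm10 chr19:27216484-27254231, plus strand), the receptor that takes up triglyceride-rich lipoproteins alongside the lipase, kept close to Lpl. It had 256, 272 and 258 CPM in HFD AAV-BCKDK hearts, 109, 185 and 139 CPM in HFD AAV-CON hearts, and 299, 287 and 275 CPM in ND AAV-CON hearts. Again HFD AAV-BCKDK lay wholly between the other groups, close to ND AAV-CON. On the log2 scale it fell by 0.99 in HFD AAV-CON against ND AAV-CON (SE 0.16, adjusted p = 0.00195) and rose by 0.86 in HFD AAV-BCKDK against HFD AAV-CON (SE 0.16, adjusted p = 0.00505). The Vldlr to Lpl count ratio ranged from 0.0768 to 0.0869 in HFD AAV-BCKDK, 0.0764 to 0.0855 in HFD AAV-CON and 0.0693 to 0.0769 in ND AAV-CON. Its log2 value differed by 0.15 between HFD AAV-CON and ND AAV-CON (exact permutation p = 0.2) and by 0.00 between HFD AAV-BCKDK and HFD AAV-CON (exact permutation p = 1).

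Angptl4 (ENSMUSG00000002289, mm10 chr17:33773750-33781830, minus strand), the secreted inhibitor of lipoprotein lipase, was not called in any comparison and was the most uneven member in the vector group. It had 28.0, 56.2 and 69.5 CPM in HFD AAV-BCKDK hearts, 47.1, 41.8 and 43.3 CPM in HFD AAV-CON hearts, and 70.3, 75.5 and 66.2 CPM in ND AAV-CON hearts. HFD AAV-BCKDK replicate 1 was the lowest of the 9 libraries, replicate 3 lay among the ND AAV-CON values, and HFD AAV-CON lay wholly below ND AAV-CON. The log2 fold change was -0.68 in HFD AAV-CON relative to ND AAV-CON (SE 0.26, adjusted p = 0.0563), and it passed the threshold without HFD AAV-BCKDK replicate 1 (adjusted p = 0.00208) or 3 (0.0359), which enter only through the shared spread, and with DESeq2 (0.0222). HFD AAV-BCKDK gave 0.22 against HFD AAV-CON (SE 0.26, adjusted p = 0.529), 0.51 without its replicate 1 (adjusted p = 0.0177), -0.07 without its replicate 3, and -0.24 with total-count scaling. The median of all genes with that scaling was -0.468.

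Genes that fold, anchor or cofactor the lipase, and others of lipid uptake, split between directions. Of 16 tested, 6 rose, 6 fell and 4 were not called in HFD AAV-CON against ND AAV-CON. Lrp1, a large receptor that clears lipoprotein remnants and is found on macrophages among other cells, rose by 0.97 (SE 0.16, adjusted p = 0.0017). The fatty acid binding protein of capillary endothelium and fat Fabp4 fell by 1.04 (SE 0.17), the caveolar protein Cav1 by 0.75 (SE 0.15), and Meox2, which with Tcf15 drives fatty acid transport genes in heart endothelium, by 1.03 (SE 0.16). With the BCKDK vector all 4 moved back, Lrp1 by -1.01 (SE 0.16), Fabp4 by 0.75 (SE 0.17), Cav1 by 0.57 (SE 0.15) and Meox2 by 0.87 (SE 0.16). The Cav1 rise was not called without HFD AAV-CON replicate 3 or HFD AAV-BCKDK replicate 3, nor with total counts. In that comparison 5 of the 16 rose and 4 fell, or 2 and 6 with total-count scaling. Without HFD AAV-CON replicate 3, 4 rose and 4 fell in HFD AAV-CON against ND AAV-CON, and 2 rose and 4 fell in HFD AAV-BCKDK against HFD AAV-CON. Endothelial markers moved alongside: their summed level was 1350 to 1560 CPM in HFD AAV-BCKDK hearts, 915 to 1260 CPM in HFD AAV-CON hearts and 1290 to 1430 CPM in ND AAV-CON hearts, with 9 of 14 higher in HFD AAV-BCKDK than in HFD AAV-CON, and 8 lower in HFD AAV-CON against ND AAV-CON. With total-count scaling 1 rose in the first of these and 3 fell and 1 rose in the second, and without HFD AAV-CON replicate 3 the counts were 5 and 5. Without HFD AAV-CON replicate 2 they were 14 and 12, and 5 were called in the second without ND AAV-CON replicate 1. In the first, 5 were called without HFD AAV-CON replicate 1 and 5 to 6 without any 1 HFD AAV-BCKDK library. Their part in these values was not tested.

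Cd36 (ENSMUSG00000002944, mm10 chr5:17781690-17888801, minus strand) encodes the fatty acid translocase of cardiomyocyte, endothelial and macrophage membranes. It had 2640, 2490 and 2640 CPM in HFD AAV-BCKDK hearts, 1110, 1890 and 1460 CPM in HFD AAV-CON hearts, and 2480, 2540 and 2480 CPM in ND AAV-CON hearts. The HFD AAV-BCKDK and ND AAV-CON values overlapped and all stood above HFD AAV-CON. Cd36 was 1.68-fold lower in HFD AAV-CON than in ND AAV-CON (log2 fold change -0.75, SE 0.18, adjusted p = 0.00911) and 1.74-fold higher in HFD AAV-BCKDK than in HFD AAV-CON (0.80, SE 0.18, adjusted p = 0.00939). HFD AAV-BCKDK differed from ND AAV-CON by 0.05, with a 95% interval of -0.35 to 0.45.

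Slc27a1 (ENSMUSG00000031808, mm10 chr8:71568882-71587302, plus strand), the transport protein FATP1 that also activates fatty acids to their coenzyme A esters, had the same order at a lower level. It had 66.1, 83.3 and 78.8 CPM in HFD AAV-BCKDK hearts, 32.0, 63.9 and 40.3 CPM in HFD AAV-CON hearts, and 98.7, 83.3 and 85.5 CPM in ND AAV-CON hearts. HFD AAV-BCKDK stood above HFD AAV-CON, and its replicate 2 lay level with the lowest ND AAV-CON value, below it only past the digits given. On the log2 scale Slc27a1 fell by 0.98 in HFD AAV-CON against ND AAV-CON (SE 0.22, adjusted p = 0.00724) and rose by 0.75 in HFD AAV-BCKDK against HFD AAV-CON (SE 0.22, adjusted p = 0.0258). The second call did not hold with total-count scaling (0.34, adjusted p = 0.0755), nor when HFD AAV-CON replicate 3 (0.69, adjusted p = 0.0826) or 1 (0.57, adjusted p = 0.0516) was left out, nor HFD AAV-BCKDK replicate 2 (adjusted p = 0.0801) or 3 (0.0672).

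Fabp3 (ENSMUSG00000028773, mm10 chr4:130308595-130315463, plus strand), the cytosolic carrier that moves fatty acids through the heart muscle cell, was the most abundant member per kilobase in every group. It had 3630, 3280 and 2930 CPM in HFD AAV-BCKDK hearts, 1260, 2650 and 1760 CPM in HFD AAV-CON hearts, and 2300, 2740 and 2510 CPM in ND AAV-CON hearts. HFD AAV-BCKDK stood above both other groups, which overlapped. Per kilobase this was 3980 ± 424 CPM per kb in HFD AAV-BCKDK, 2300 ± 853 in HFD AAV-CON and 3060 ± 269 in ND AAV-CON (SD, n = 3). HFD AAV-CON gave -0.41 against ND AAV-CON on the log2 scale (SE 0.24, adjusted p = 0.189), and -0.74 when HFD AAV-CON replicate 2 was left out (adjusted p = 0.00403). Fabp3 rose by 0.79 in HFD AAV-BCKDK against HFD AAV-CON (SE 0.24, adjusted p = 0.0289), a call that did not hold when HFD AAV-CON replicate 3 (0.77, adjusted p = 0.0873) or any 1 HFD AAV-BCKDK library (adjusted p = 0.0508 to 0.09) was left out. HFD AAV-BCKDK gave 0.38 against ND AAV-CON, with a 95% interval of -0.16 to 0.92 (adjusted p = 0.471). In a fit of these 2 groups alone Fabp3 was called as higher (0.39, adjusted p = 0.0486). The opposite-strand genes Zcchc17 and Gm10570 overlap it, and their counts were at most 1.4% and 0.011% of its own in any library.

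**Figure D3:**
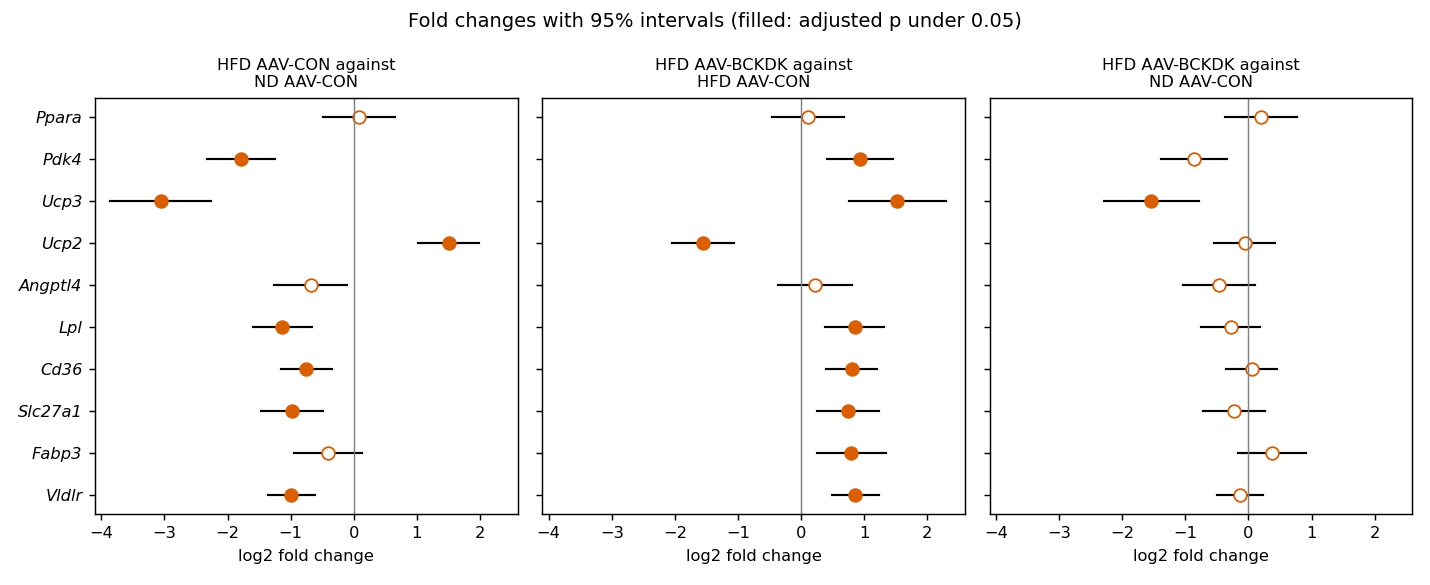
Log2 fold changes (dots) with 95% intervals (lines) of the 10 genes in the comparisons named above each panel; filled dots have an adjusted p under 0.05. Filled dots lie left of 0 for Pdk4, Ucp3, Lpl, Cd36, Slc27a1 and Vldlr in the left panel and right of 0 in the middle one, Ucp2 does the reverse, and Ucp3 alone is filled in the right panel.

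How far each gene returned was described as the share of the log2 distance between HFD AAV-CON and ND AAV-CON that each HFD AAV-BCKDK library covered, for the 7 members called in HFD AAV-CON against ND AAV-CON. Ucp3 covered 27.5%, 55.5% and 62.7% in replicates 1, 2 and 3, and Pdk4 covered 37.2%, 51.4% and 68.4%. All 3 libraries fell short of the ND AAV-CON mean for both genes, and replicate 1 fell shortest. Lpl averaged 76.0% ± 4.45, Slc27a1 77.4% ± 16.9 and Vldlr 87.1% ± 4.70, while Ucp2 averaged 102% ± 12.9 and Cd36 106% ± 6.13 (SD, n = 3). The share depends on the HFD AAV-CON mean that both of its parts use, so it was given no test. With total-count scaling it was 35.7% for Pdk4, 39.4% for Ucp3, 57.0% for Lpl, 54.9% for Slc27a1, 70.2% for Vldlr, 98.4% for Cd36 and 105% for Ucp2.

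**Figure D4:**
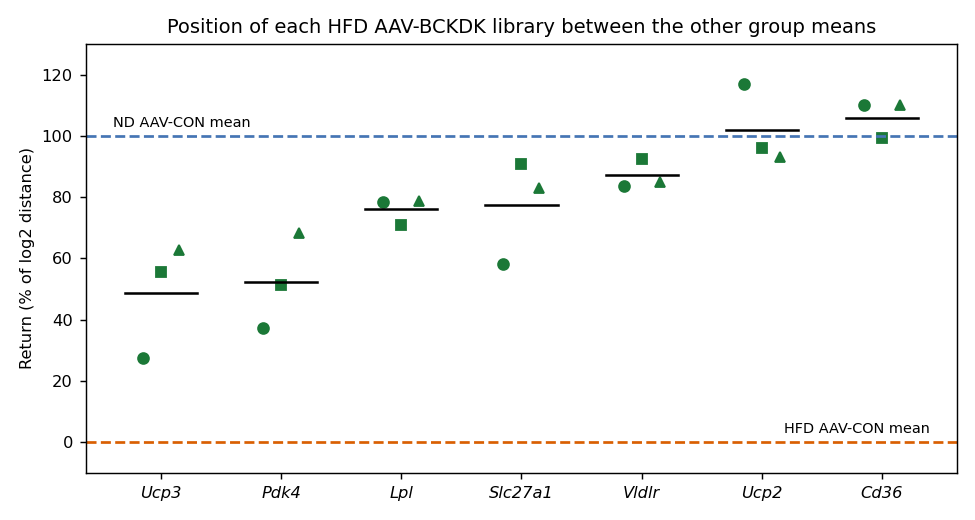
Share of the log2 distance from the HFD AAV-CON mean (0%) to the ND AAV-CON mean (100%) covered by each HFD AAV-BCKDK library (markers are replicates 1, 2 and 3; black lines are means) for the 7 members called in HFD AAV-CON against ND AAV-CON. Ucp3 and Pdk4 lie between 27.5% and 68.4%, and Ucp2 and Cd36 lie around 100%.

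Cardiomyocyte markers also moved between the groups. Of 16, 11 fell in HFD AAV-CON against ND AAV-CON and 9 rose in HFD AAV-BCKDK against HFD AAV-CON, or 3 and 1 without HFD AAV-CON replicate 3. The falls numbered 7 without ND AAV-CON replicate 1 and 4 without replicate 2, and the rises 2 to 4 without any 1 HFD AAV-BCKDK library and 15 without HFD AAV-CON replicate 2. Their summed level was 56100, 56300 and 51700 CPM in HFD AAV-BCKDK hearts, 26300, 46800 and 33800 CPM in HFD AAV-CON hearts, and 57900, 60800 and 57700 CPM in ND AAV-CON hearts, with none at 0. The order of the HFD AAV-CON libraries, replicate 1 lowest and replicate 2 highest, was also that of Ppara, Pdk4, Ucp3, Lpl, Cd36, Slc27a1, Fabp3 and Vldlr. Ucp2 and Angptl4 had the reverse order. Member counts were therefore also taken per 1000 counts of these markers in the same library, a scale chosen after the data were seen and given without a test.

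On that scale the members parted into those that still differed and those that hardly did, and another marker set, given below, split them otherwise. Cd36 had 47.2, 44.3 and 51.0 counts per 1000 in HFD AAV-BCKDK hearts, 42.3, 40.3 and 43.2 in HFD AAV-CON hearts, and 42.8, 41.8 and 43.0 in ND AAV-CON hearts, so the control-vector groups overlapped (log2 difference -0.02). Pdk4 had 27.8, 33.2 and 44.9 in HFD AAV-BCKDK hearts, 27.0, 28.9 and 28.3 in HFD AAV-CON hearts, and 63.3, 55.5 and 58.7 in ND AAV-CON hearts. Both high-fat groups thus stayed below ND AAV-CON, and they overlapped each other. Ucp3 had 0.477, 0.876 and 1.11 in HFD AAV-BCKDK hearts, 0.349, 0.495 and 0.429 in HFD AAV-CON hearts, and 2.36, 2.23 and 2.02 in ND AAV-CON hearts, and its high-fat groups likewise overlapped below ND AAV-CON.

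Of the others, Lpl (-0.42), Slc27a1 (-0.27) and Vldlr (-0.26) were lower in HFD AAV-CON than in ND AAV-CON on this log2 scale without overlap, by less than in CPM. Fabp3 turned direction and was higher in HFD AAV-CON than in ND AAV-CON by 0.29, also without overlap. Angptl4 differed by 0.08 with the groups overlapping, where in CPM they had not, and Ucp2 stood higher in HFD AAV-CON by 2.28. Ppara had 0.0974, 0.0816 and 0.104 counts per 1000 in HFD AAV-BCKDK hearts, 0.125, 0.143 and 0.131 in HFD AAV-CON hearts, and 0.0609, 0.0835 and 0.0836 in ND AAV-CON hearts. HFD AAV-CON stood above both other groups, by a log2 difference of 0.82 from ND AAV-CON. The marker sum itself was lower in HFD AAV-CON, so a gene with level CPM stands higher there on this scale. In CPM the Ppara log2 fold changes were 0.09 in HFD AAV-CON against ND AAV-CON and 0.11 in HFD AAV-BCKDK against HFD AAV-CON. With the BCKDK vector, in HFD AAV-BCKDK against HFD AAV-CON, Cd36 (0.18), Lpl (0.24) and Vldlr (0.23) were higher without overlap on this scale, by less than in CPM. Ucp2 (-2.21) and Ppara (-0.50) were lower without overlap. Pdk4 (0.30), Ucp3 (0.88), Fabp3 (0.20), Slc27a1 (0.14) and Angptl4 (-0.54) overlapped, so 4 of the 7 rises called in CPM had no separate groups here. The marker sum was higher in HFD AAV-BCKDK than in HFD AAV-CON, which lowers any gene on this scale relative to CPM. The share of all genes without overlap was not taken on the marker scales. Other markers gave another split. Per endothelial marker counts Cd36 was lower in HFD AAV-CON than in ND AAV-CON (-0.42) without overlap. It was higher in HFD AAV-BCKDK than in HFD AAV-CON (0.36), also without overlap. Between HFD AAV-CON and ND AAV-CON, Fabp3 (-0.11) and Ppara (0.42) then overlapped. In that comparison 1 member was higher, 6 lower and 3 overlapping, beside 3, 5 and 2 per cardiomyocyte marker counts. The part of the cardiomyocyte marker fall in the members' values in CPM was not tested.

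**Figure D5:**
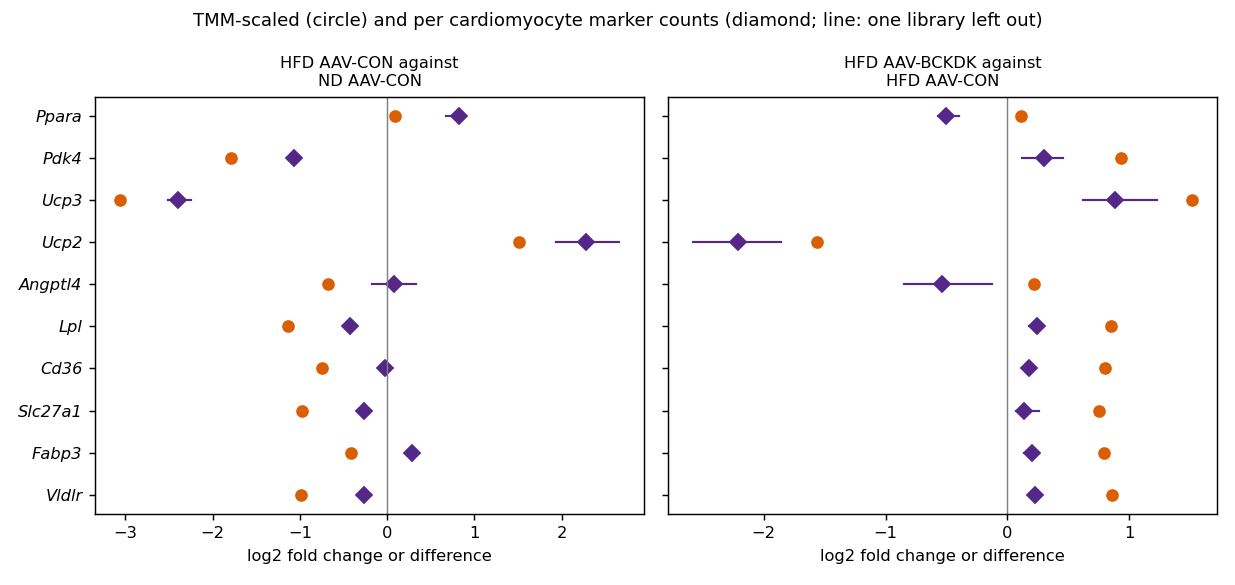
Log2 fold change from TMM-scaled counts (circles) and log2 difference per cardiomyocyte marker counts (diamonds, with a line for the range when 1 library is left out) of the 10 genes, with HFD AAV-CON relative to ND AAV-CON on the left and HFD AAV-BCKDK relative to HFD AAV-CON on the right. On the marker scale Cd36 lies at -0.02 and Pdk4 and Ucp3 at -1.07 and -2.39 in the left panel.

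Lpl, Cd36, Angptl4 and Slc27a1 are also expressed in fat, and 12 adipocyte markers were looked at. Lep was at 0 in all libraries, the adipokine Adipoq had at most 1.34 CPM and the lipid droplet protein Plin1 at most 0.566 CPM, and Cidec, Retn, Cfd and Adrb3 also stayed at or below 2.47 CPM. The highest values of Adipoq, Plin1, Cidec and Cfd all lay in HFD AAV-BCKDK hearts. The other 5 markers were higher: Lipe, a lipase also found in muscle, reached 68.8 CPM, Aqp7 48.2, Leprot 46.3, Cidea 28.2 and Dio2 14.0 CPM. Aqp7, a glycerol channel, had 36.7, 38.8 and 48.2 CPM in HFD AAV-BCKDK hearts, 14.1, 24.0 and 17.4 CPM in HFD AAV-CON hearts, and 47.7, 45.2 and 47.5 CPM in ND AAV-CON hearts, so it fell and rose in the same comparisons as Lpl and Cd36. All 12 summed to 139 to 173 CPM in HFD AAV-BCKDK hearts, 123 to 135 CPM in HFD AAV-CON hearts and 157 to 174 CPM in ND AAV-CON hearts. Erythroid markers summed to 987 to 1590 CPM in HFD AAV-BCKDK hearts, 471 to 916 CPM in HFD AAV-CON hearts and 1500 to 1680 CPM in ND AAV-CON hearts, and fibroblast markers to 2420 to 2620 CPM in HFD AAV-BCKDK hearts, 3370 to 5670 CPM in HFD AAV-CON hearts and 2550 to 2660 CPM in ND AAV-CON hearts. Their part in the members' values was not tested.

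Other targets of PPAR-alpha, mostly enzymes of fatty acid oxidation, fell in part and then rose in most cases. Of 36 listed genes 31 were tested. In HFD AAV-CON against ND AAV-CON 15 fell, 0 rose and 16 were not called by edgeR (median log2 fold change -0.64), and no rise had an unadjusted p under 0.05 or was called by DESeq2 or limma-voom; without HFD AAV-CON replicate 3, 6 fell and 1 rose of 32 tested. With the BCKDK vector 26 rose, 2 fell and 3 were not called (median 0.88), and without that library 7 rose and 1 fell. The falls numbered 7 without ND AAV-CON replicate 2, 10 without replicate 1 or 3 and 27 without HFD AAV-CON replicate 2, and the rises with the vector 15 to 17 without any 1 HFD AAV-BCKDK library. The 2 that fell, named after their values were seen, were the liver-type carnitine palmitoyltransferase Cpt1a (-0.48, SE 0.095) and the lipid droplet protein Plin2 (-0.34, SE 0.09), whose call was lost without HFD AAV-CON replicate 3 or HFD AAV-BCKDK replicate 1 or 2.

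Ehhadh, a peroxisomal enzyme of fatty acid oxidation, was the one gene of that list still called in HFD AAV-BCKDK against ND AAV-CON. It had 10.2, 11.7 and 15.6 CPM in HFD AAV-BCKDK hearts, 3.72, 8.29 and 5.94 CPM in HFD AAV-CON hearts, and 36.3, 43.2 and 39.7 CPM in ND AAV-CON hearts. HFD AAV-BCKDK again lay wholly between the other groups. Its log2 fold change was -2.74 in HFD AAV-CON against ND AAV-CON (SE 0.27, adjusted p = 0.00036), 1.08 in HFD AAV-BCKDK against HFD AAV-CON (SE 0.26, adjusted p = 0.013) and -1.67 in HFD AAV-BCKDK against ND AAV-CON (SE 0.26, adjusted p = 0.0149). The last call was lost without HFD AAV-BCKDK replicate 1 or 2 or any ND AAV-CON library (adjusted p up to 0.0771), with the fold change between -1.86 and -1.54. Calls in the list in that comparison numbered 15 in a fit of the 2 groups alone, 3 by DESeq2 and 4 without HFD AAV-CON replicate 1 or 2. Malonyl-CoA decarboxylase Mlycd fell by 1.14 (SE 0.24), the triglyceride lipase Pnpla2 by 0.83 (SE 0.17) and Txnip, which restrains glucose uptake, by 0.73 (SE 0.13) in HFD AAV-CON against ND AAV-CON. All of them rose in HFD AAV-BCKDK against HFD AAV-CON, by 0.93, 0.61 and 0.45, and none of these 3 rises was called without HFD AAV-CON replicate 3 or HFD AAV-BCKDK replicate 3.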

How the data were processed

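Left ventricular mRNA of 9 wild-type mice was measured, 3 biological replicates a group, per the labels. Per the labels' protocols, Trizol was used for RNA and a VAHTS mRNA-seq v2 kit for libraries. The submitters' processing notes name HISAT2 2.0.5 and mm10. Which tool and annotation gave the counts, and whether with strand, is not given in the sources used here. Whole-number counts per gene were deposited by the authors without normalization. Loci without a gene name (4142, 1.02% to 6.01% of a library) were left out.

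Counts were tested in R 4.3.3 with edgeR 4.0.16: filterByExpr by group (14160 genes kept), TMM factors, a quasi-likelihood model with 1 coefficient per group over all 9 libraries, and Benjamini-Hochberg adjustment at 0.05 over all genes tested. Every adjusted p is from this test unless another is named. The SE of a fold change comes from its F statistic and its 95% interval from the t distribution. CPM uses TMM-scaled library sizes, and CPM per kb divides by the union exon length of GENCODE M21. Return was computed on log2(CPM + 0.5). Count ratios were tested with exact two-sided permutation tests. Within each group, replicate counts differed beyond sampling noise. Same-numbered libraries did not deviate together (correlations -0.22 to 0.19), so numbers were not taken as pairs. The pipeline was tested on simulated data with far fewer changed genes than were called here. That test does not cover shifts as broad as those in these libraries.

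The members and gene lists were chosen with earlier results of these data known. The text names all 10 members, up to 4 genes of each list with the smallest p in HFD AAV-CON against ND AAV-CON, and the 5 genes nearest to Ppara; for marker lists only sums and counts are given. A gene that this rule names is not reported here. Genes outside this rule are said to be chosen after their values were seen, as are Bckdk, Ucp1, Pdk2, the adipocyte markers and the genes that overlap members. Alternatives were RLE, upper-quartile and total-count scaling, other filters, DESeq2 1.42.0, limma-voom (limma 3.58.1), a robust dispersion fit, the 2 compared groups alone, a replicate block, unnamed loci kept, mitochondrial genes left out, a threshold of 0.01, thinning to equal totals, and each library left out. Intervals cover the spread between libraries only.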

Additional observations from a re-analysis of the deposited data

How the results depend on the processing

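The 7 calls of members in HFD AAV-CON against ND AAV-CON held in direction and threshold at 0.05 under every alternative run, and leaving out 1 library gave 7 to 8 calls among members and 4050 to 7325 over all genes (6134 with all libraries). In HFD AAV-BCKDK against HFD AAV-CON those ranges were 5 to 8 (8 with all libraries) and 2847 to 6978 (5410), and in HFD AAV-BCKDK against ND AAV-CON 0 to 2 (1) and 43 to 744 (347). For that last comparison, members called were 2 with total-count scaling, 2 with DESeq2, 4 with fits of the 2 groups alone, 0 with robust dispersion, 0 with the replicate block, 0 with unnamed loci kept and 0 at a threshold of 0.01. All genes called there were 136 with total counts, 902 with DESeq2, 873 with the 2 groups alone, 107 with the replicate block and 64 at 0.01. At 0.01 the genes called were 3254 in HFD AAV-CON against ND AAV-CON and 2058 in HFD AAV-BCKDK against HFD AAV-CON, where 4 members were called. Total-count scaling moved the median of all genes by 0.398 in HFD AAV-CON against ND AAV-CON and gave -0.468 in HFD AAV-BCKDK relative to HFD AAV-CON, and fold changes are best read relative to these. Signs reversed for Ppara in HFD AAV-BCKDK against HFD AAV-CON (-0.30, total counts), Angptl4 in the same comparison (-0.24, total counts) and Ppara in HFD AAV-CON against ND AAV-CON (-0.03, limma-voom). Both total-count values lie above the -0.468 median of all genes. With 1 library left out, Ppara ranged from -0.23 to 0.30 in HFD AAV-CON against ND AAV-CON and from -0.08 to 0.45 in HFD AAV-BCKDK against HFD AAV-CON, Angptl4 from -0.07 to 0.51 there, and Ucp2 from -0.19 to 0.20 in HFD AAV-BCKDK against ND AAV-CON. The replicate block gave 7 and 8 members called in the first and second comparison, and 5614, 4922 and 107 genes in the 3 comparisons; Ucp3 in HFD AAV-BCKDK against ND AAV-CON then gave -1.62 (adjusted p = 0.0562). The cause of these shifts was not tested. With 3 libraries a group, differences smaller than the 95% intervals given cannot be seen, and Ppara rests on 129 to 248 counts a library.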
